A study of Mus musculus with 6 samples.

Results

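The variable segments of the immunoglobulin kappa light chain (Igkv) were read from bone marrow RNA as a set of 100 annotated genes among the 54532 genes of the expression table. They were defined by annotation, as rows with the biotype IG_V_gene and a name starting with Igkv. The set was chosen with earlier results of these data known. All lie in 1 cluster on mouse chromosome 6 (chr6:67555497-70704177, GRCm38) and belong to 20 named families. Of the 100 segments, 94 had at least 1 sequenced fragment in some library, 52 had one in all 6 libraries, and 6 had none.

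The libraries came from bone marrow cells of the tibia selected for CD11b, an integrin chain of myeloid cells, in mice aged 12 weeks. There were 3 libraries labelled Tshr+/+ (wild type) and 3 labelled Tshr-/-, named by genotype and a mouse number from 1 to 3. The Tshr gene product is the thyroid-stimulating hormone receptor. The titles give Tshr-/- while another label calls the same animals a knockdown, and the table heads their columns HO, which was read as homozygous. Both groups also carry a label naming osteoclast differentiation, with no time and no culture step described. No promoter, Cre line or deleted exon is given, and each number was read as 1 animal. If libraries of a group are not separate animals, the p-values measure only the spread between libraries.

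Tshr stayed well above 0 in 2 libraries labelled Tshr-/-. Its level was 0.537, 0.552 and 0.405 FPKM (fragments scaled to gene length and to a size factor of each library, as deposited) in Tshr+/+ 1 to 3. In Tshr-/- 1 to 3, by label, it was 0.414, 0.297 and 0.00825 FPKM. In FPKM, Tshr-/- 1 lay within the wild-type range and Tshr-/- 2 below it. As fragments, not scaled to depth, Tshr was at 55, 55 and 45 in Tshr+/+ and 40, 25 and 1 in Tshr-/- libraries. Only the library labelled Tshr-/- 3 was far below the wild type, so directions below are those of the labels. Itgam, which encodes CD11b, was at 87.4 to 134 FPKM in all 6 libraries. Between 14698126 and 17976477 fragments per library fell on genes.

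A kappa light chain gene is assembled in developing B cells, when 1 Igkv segment is joined to 1 of the short Igkj segments upstream of the constant exon Igkc. Each B cell clone and its antibody-secreting plasma cells then transcribe mainly the segment they joined, so the segments read in a tissue reflect which clones were sampled and how much RNA each clone made. A segment supplies the leader, most of the variable domain, and the start of CDR3, the loop at the centre of the antigen-binding site. The rest of CDR3 comes from the joint and from Igkj. Myeloid cells do not assemble the locus, and B lineage markers are given below beside the segments.

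The 3′ ends of the coding sequences show what the segments share and where they differ, and are given for the most abundant segments, the segments with the smallest p-values, and a segment with no fragment. Each line is the last 81 coding bases of the segment in the GENCODE M21 transcripts (GRCm38), 5′ to 3′, in the sense of the gene. Capitals mark the bases after the codon of the last conserved cysteine, which are the part of CDR3 that the segment encodes.
Igkv1-117: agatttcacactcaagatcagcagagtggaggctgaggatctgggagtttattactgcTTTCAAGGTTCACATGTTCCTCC
Igkv1-110: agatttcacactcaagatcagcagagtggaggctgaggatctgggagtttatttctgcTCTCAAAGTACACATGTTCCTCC
Igkv1-135: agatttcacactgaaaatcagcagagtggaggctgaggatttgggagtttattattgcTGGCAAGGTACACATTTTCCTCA
Igkv10-96: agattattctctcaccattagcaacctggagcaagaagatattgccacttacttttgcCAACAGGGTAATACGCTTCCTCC
Igkv8-30: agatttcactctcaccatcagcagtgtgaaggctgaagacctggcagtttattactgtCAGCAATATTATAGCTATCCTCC
Igkv15-103: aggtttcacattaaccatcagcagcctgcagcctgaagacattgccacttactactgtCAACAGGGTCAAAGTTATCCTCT
Igkv3-2: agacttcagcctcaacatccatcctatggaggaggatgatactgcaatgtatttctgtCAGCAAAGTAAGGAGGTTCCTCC
Igkv3-4: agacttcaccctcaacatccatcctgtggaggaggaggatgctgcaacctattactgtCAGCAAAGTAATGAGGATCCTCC
Igkv4-72: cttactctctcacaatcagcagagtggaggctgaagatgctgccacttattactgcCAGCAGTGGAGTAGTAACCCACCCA
Igkv4-59: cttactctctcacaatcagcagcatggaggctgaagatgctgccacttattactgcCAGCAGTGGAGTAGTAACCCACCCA
Igkv2-109: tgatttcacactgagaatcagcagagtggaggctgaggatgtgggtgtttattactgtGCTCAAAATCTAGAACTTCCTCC
Igkv18-36: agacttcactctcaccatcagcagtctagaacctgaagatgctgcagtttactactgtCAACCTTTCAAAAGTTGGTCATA

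All 100 segments matched a transcript of that annotation at the same position, each with 2 exons, the leader exon and the exon of the variable domain. The part after the cysteine was 23 bases long in 65 segments and 25 bases in 21, over a range of 18 to 29, and the cysteine was found by its sequence context in 98. There were 84 distinct ends, and 12 groups with 26 segments in all shared an identical one. Igkv4-59 and Igkv4-72, printed above, shared theirs with Igkv4-68 and Igkv4-71.

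Likeness between segments limits how far fragments can be placed. The 2 most abundant segments, Igkv1-117 and Igkv1-110, were 97.2% identical. Of their stretches of 50 bases, 50.1% and 49.1% occurred in the transcripts of no other annotated gene, segment or not. Over all 100 segments, the median identity to the nearest other segment was 94.3%. The median share of 50-base stretches found in no other annotated gene was 74.4%. Igkv15-103 shared no such stretch, at 100%, Igkv3-2 had 78.7%, and Igkv4-59 had only 25.7%. For stretches of 100 bases the median was 100%, with 83.9% for Igkv1-117, 83.8% for Igkv1-110 and 79.6% for Igkv4-59. The limit thus depends on the length that is read. The sources used here do not say how fragments that match several segments were counted, so the split of a level between near-identical segments is uncertain.

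The summed level of the 100 segments was 239.9, 156.2 and 306.8 FPKM in Tshr+/+ 1, 2 and 3. With the Tshr-/- label it was 98.5, 168.7 and 203.9 FPKM, in the order of the mouse numbers. The groups overlapped: the highest library was Tshr+/+ 3 and the lowest Tshr-/- 1, but Tshr+/+ 2 was below 2 of the libraries labelled Tshr-/-. The means were 234 ± 75.5 and 157 ± 53.6 FPKM (SD, n = 3), a log2 ratio of -0.58. Leaving out 1 library at a time gave log2 ratios from -0.81 to -0.33. The library labelled Tshr-/- 3 alone against the wild type gave -0.20, and its sum lay within the wild-type range. The size of that ratio depends on the scaling. Of the fragments on genes, kappa V segments took 1528 of 17976477 in Tshr-/- 3. In Tshr+/+ 1 to 3 they took 1516 of 17635762, 966 of 17640437 and 2120 of 17072004. By this share Tshr-/- 3 was close to Tshr+/+ 1, and no reduction is read from that library alone. The sums rested on 591 to 2120 fragments per library.

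Igkc, the constant exon that every kappa transcript carries, was at 561, 316 and 556 FPKM in Tshr+/+ and 164, 324 and 315 FPKM in Tshr-/- libraries. Jchain, which links secreted IgA and IgM, was at 39.9, 21.2 and 44.9 against 11.4, 22.2 and 22.3 FPKM. Mzb1, a chaperone of antibody-secreting cells, was at 3.96, 2.33 and 4.90 against 1.17, 1.58 and 2.74 FPKM. These 3 genes, like the segments, were lowest in the library labelled Tshr-/- 1 and lower in Tshr+/+ 2 than in the other wild-type libraries. Mzb1 was picked out after its values were seen and does not stand for the plasma cell genes as a list. Of the 8 tested genes of that list, 4 had a lower and 4 a higher mean in Tshr-/- libraries, with a median log2 fold change of 0.02. Xbp1, a transcription factor of secretory cells, had 0.12. The untested genes of the list all had group means under 1 FPKM. Of these, Sdc1, Tnfrsf17, Derl3, Slamf7 and Pou2af1 had a lower mean in Tshr-/- libraries with overlapping groups. Fkbp11 had a higher mean with no overlap. The part of Igkc, Jchain and Mzb1 in the segment values was not tested. In bulk RNA, fewer cells of a type and less RNA per cell cannot be told apart.

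**Figure D1:**
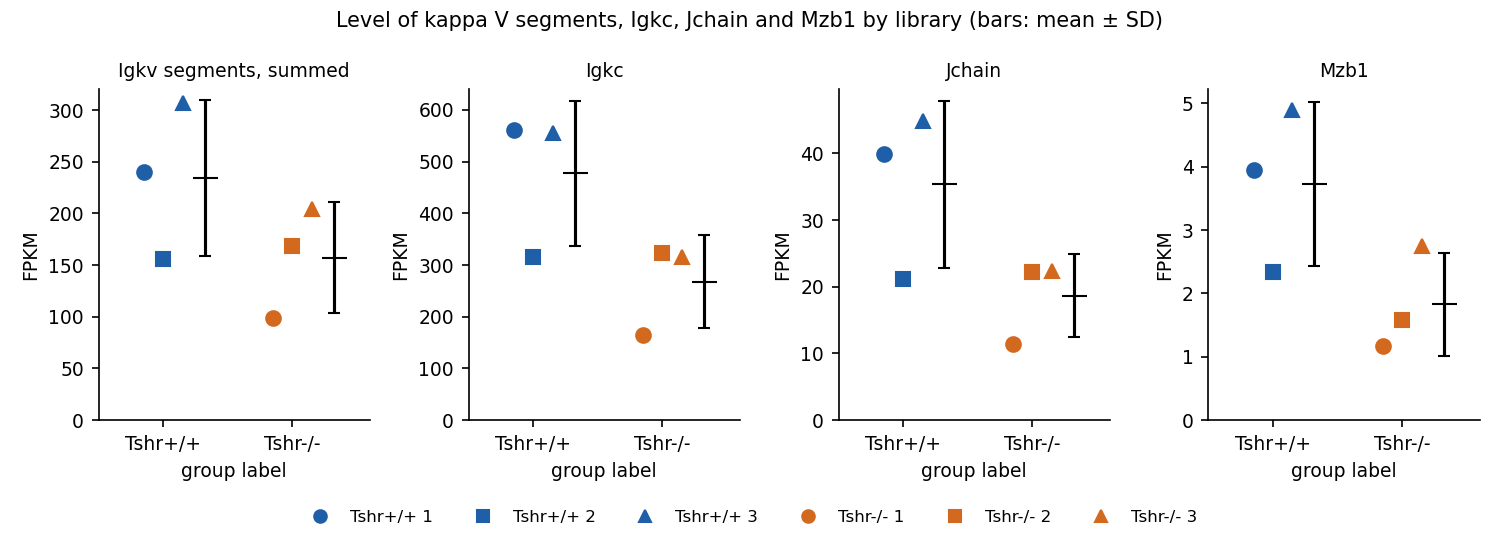
Summed FPKM of the 100 kappa V segments and FPKM of Igkc, Jchain and Mzb1 (y axes, linear from 0) in each of the 6 libraries; points are libraries, with a marker shape for each mouse number, and bars are the mean with its SD over 3 libraries. The library labelled Tshr-/- 1 is the lowest in each panel, and Tshr+/+ 2 lies within the range of the Tshr-/- libraries for the segment sum.

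Segments detected, those with at least 1 fragment, numbered 75, 71 and 76 in Tshr+/+ and 67, 73 and 76 in the libraries labelled Tshr-/-. The means of 74 ± 2.65 and 72 ± 4.58 (SD, n = 3) differed by less than either spread, and the groups overlapped. The library with the fewest kappa V fragments, Tshr-/- 1 with 591, had the fewest segments, but the order was not strict: Tshr-/- 2 had 73 segments from 890 fragments and Tshr+/+ 2 had 71 from 966. After thinning every library to 591 kappa V fragments, the expected numbers were 68.2, 65.9 and 65.7 in Tshr+/+ and 67, 69.5 and 69.3 in Tshr-/- libraries, so that the mean was 66.6 ± 1.37 against 68.6 ± 1.39 and the order of the groups turned. With a stricter minimum of 10 fragments, 42, 29 and 50 segments were counted in Tshr+/+ against 19, 29 and 41, a count that moves with the summed level.

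**Figure D2:**
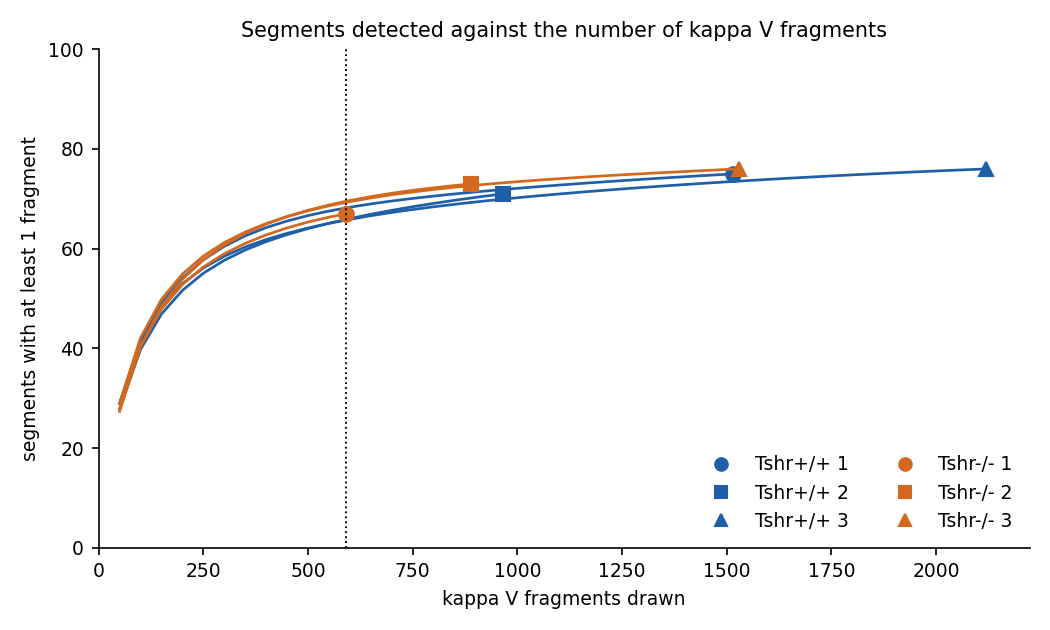
Expected number of kappa V segments with at least 1 fragment (y axis) against the number of kappa V fragments drawn without replacement (x axis), with 1 line per library that ends in a marker at its own depth, and a dotted line at 591 fragments. At 591 fragments, the depth of the shallowest library, the 6 lines lie between 65.7 and 69.5 segments.

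Which segments were seen also overlapped. Of the 94 detected segments, 88 were found in some Tshr+/+ library and 89 in some library labelled Tshr-/-, with 83 in both groups. The 5 segments seen only in Tshr+/+ and the 6 seen only in Tshr-/- libraries had at most 6 fragments each, and no segment had fragments in all 3 libraries of 1 group and none in the other. In 10 segments, the fragments all came from 1 library, and a further 32 were seen in 2 to 5 libraries. The 6 segments with no fragment were Igkv2-137, Igkv1-131, Igkv20-101-2, Igkv18-36, Igkv1-35 and Igkv8-26. Kappa variable pseudogenes, annotated separately and not among the 100, were nearly silent: 4 of 60 had a fragment, with 0 to 3 fragments in all per library.

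Usage, the share of a segment in the summed kappa V FPKM of its library, was broad. The 12 most abundant segments together made up 47.5% of the level summed over all libraries, and 14 were needed to pass 50%. The effective number of segments, the exponential of the Shannon entropy of the shares, was 45.8, 41.5 and 45.1 in Tshr+/+ and 40.4, 38.9 and 45.2 in Tshr-/- libraries. The means of 44.1 ± 2.28 and 41.5 ± 3.26 (SD, n = 3) differed by less than the spread of the Tshr-/- libraries, and the groups overlapped. The 10 leading segments of a library took between 42.9% and 50.5% of its level.

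The leading segment differed between libraries. Igkv1-117 led in Tshr+/+ 1 with 8.29%, in Tshr+/+ 2 with 9.28% and in the library labelled Tshr-/- 3 with 10.9% of the level. Igkv1-110 led in Tshr+/+ 3 with 9.58% and in Tshr-/- 2 with 16.1%. Igkv1-135 led in Tshr-/- 1 with 8.97%. As shares of fragments, with Wilson 95% intervals that cover counting error only, the leading segment took 17.2% (14.9% to 19.8%) in Tshr-/- 2 and between 9.04% and 11.8% in the other 5 libraries. The interval of Tshr-/- 2 lay above those of the other 5 libraries, whose highest upper bound was 13.6%.

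Igkv1-117 was at 19.9, 14.5 and 25.2 FPKM in Tshr+/+ and 6.001, 12.9 and 22.2 FPKM in Tshr-/- libraries, with overlapping groups. Igkv1-110, its near copy, was at 11.3, 10.1 and 29.4 against 7.91, 27.2 and 10.1 FPKM, high in 1 library of each label. Igkv10-96 was at 11.3, 9.25 and 9.49 against 6.58, 5.96 and 13.1 FPKM, and spanned the wild-type values from both sides. Igkv1-135 was the steadiest of the abundant segments, at 7.15, 8.58 and 9.19 against 8.84, 9.05 and 8.69 FPKM, while its share of the summed level ranged from 2.98% to 8.97%. In the order of mean level, Igkv1-117 and Igkv1-110 did not differ beyond their spread, nor did Igkv10-96 and Igkv1-135.

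**Figure D3:**
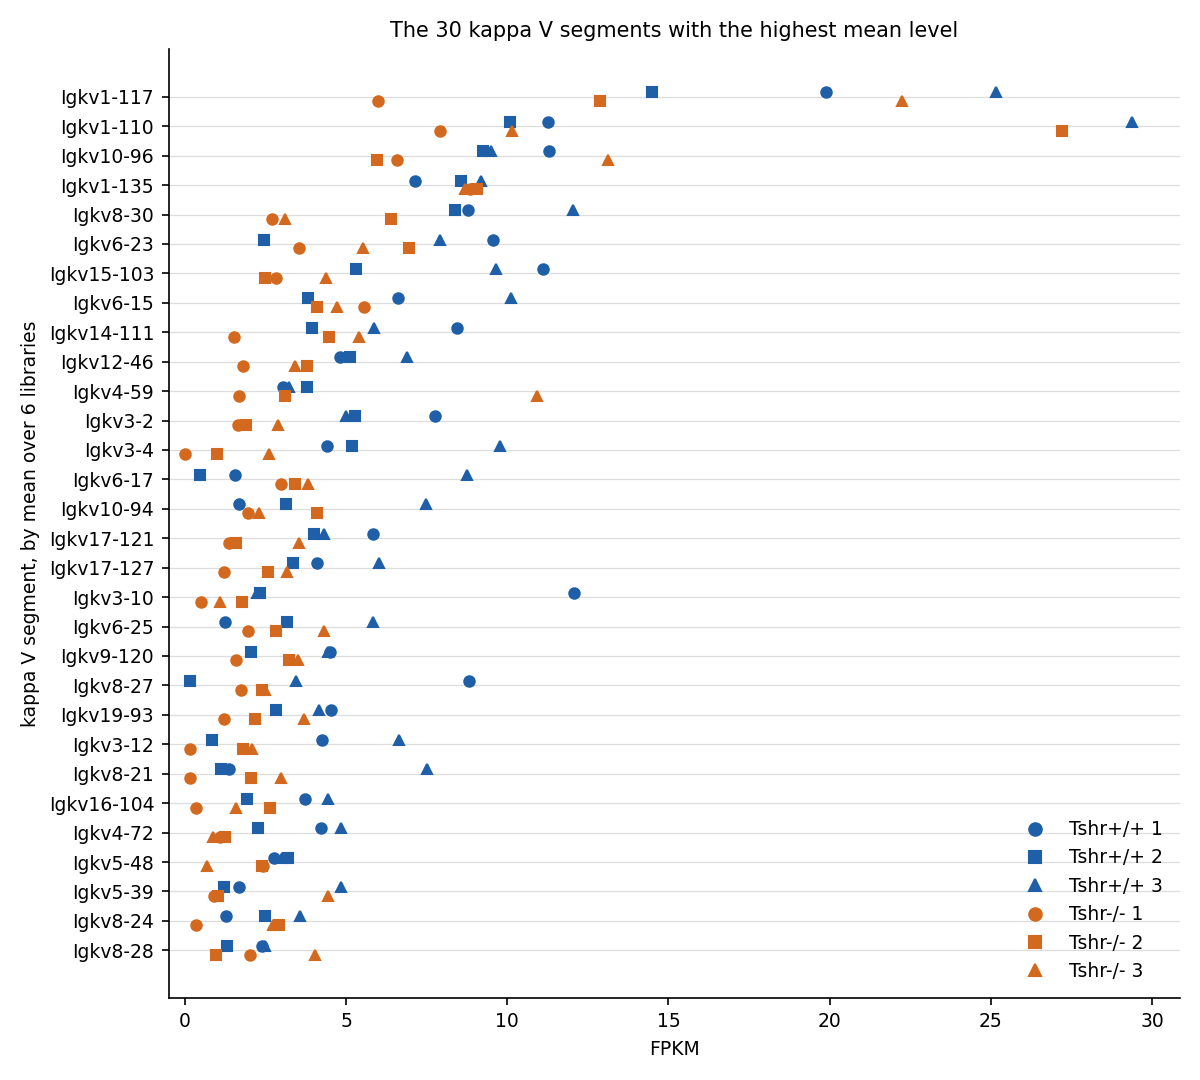
FPKM of the 30 most abundant kappa V segments (1 row each, ordered by mean level) in each library (x axis), with 1 point per library, colour giving the label and marker shape the mouse number. Igkv1-117 and Igkv1-110 reach 25.2 and 29.4 FPKM, and the points of both labels overlap for most segments.

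By family, Igkv1 held the largest share, 20.7% ± 2.32 in Tshr+/+ and 25.3% ± 5.14 in Tshr-/- libraries (SD, n = 3). Igkv6 held 11.1% and 13.8%, and Igkv8 10.1% and 8.95%. Igkv4, the family with the most members, held 11.02% and 11.7%, and all 26 of its segments had a fragment. Families Igkv18 and Igkv20 had no fragment. Igkv3, picked out after its values were seen, held 11.1% ± 2.52 against 5.72% ± 1.12, with sums of 32.8, 17.2 and 26.5 FPKM in Tshr+/+ and 4.73, 9.09 and 14.2 FPKM in Tshr-/- libraries. The Igkv3 sums of the 2 labels did not overlap. Of the 18 families with a fragment, 5 had sums that did not overlap (Igkv3, Igkv12, Igkv13, Igkv15 and Igkv17), all lower in Tshr-/- libraries. Among single genes with a fragment, 2.97% were lower with no overlap and 3.4% were higher. All 5 families hold segments listed below as not overlapping, so their sums are not a separate result. By share, 4 families were lower with no overlap (Igkv3, Igkv12, Igkv15 and Igkv17) and 1 was higher, Igkv2, at 2.07%, 1.997% and 1.06% against 3.44%, 2.98% and 2.64%. The summed FPKM of Igkv2 overlapped, at 4.97, 3.12 and 3.25 against 3.39, 5.03 and 5.38 FPKM. Shares of 1 total depend on each other, and these counts have no background from other genes. No test was made over families.

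Segments in the same orientation as Igkj join by deletion of the DNA between them, and segments in the opposite orientation join by inversion. The 38 segments in the same orientation took 52.1% ± 1.62 of the level in Tshr+/+ and 50.3% ± 4.29 in Tshr-/- libraries (SD, n = 3), so the 62 opposite ones took the remainder. A fragment was found for 35 of the 38 and 59 of the 62 segments. Along the locus, the 25 segments nearest to Igkj1, at 18.4 to 583 kb, held 27.1% and 24.4% of the level, and the 25 farthest, at 2180 to 3166 kb, held 37.4% ± 0.811 and 40.5% ± 4.11. The next 25 after the nearest held 18.6% and 19.2%, and the 25 beyond those held 16.9% and 15.9%. The share was higher at both ends of the cluster than between them, under both labels.

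**Figure D4:**
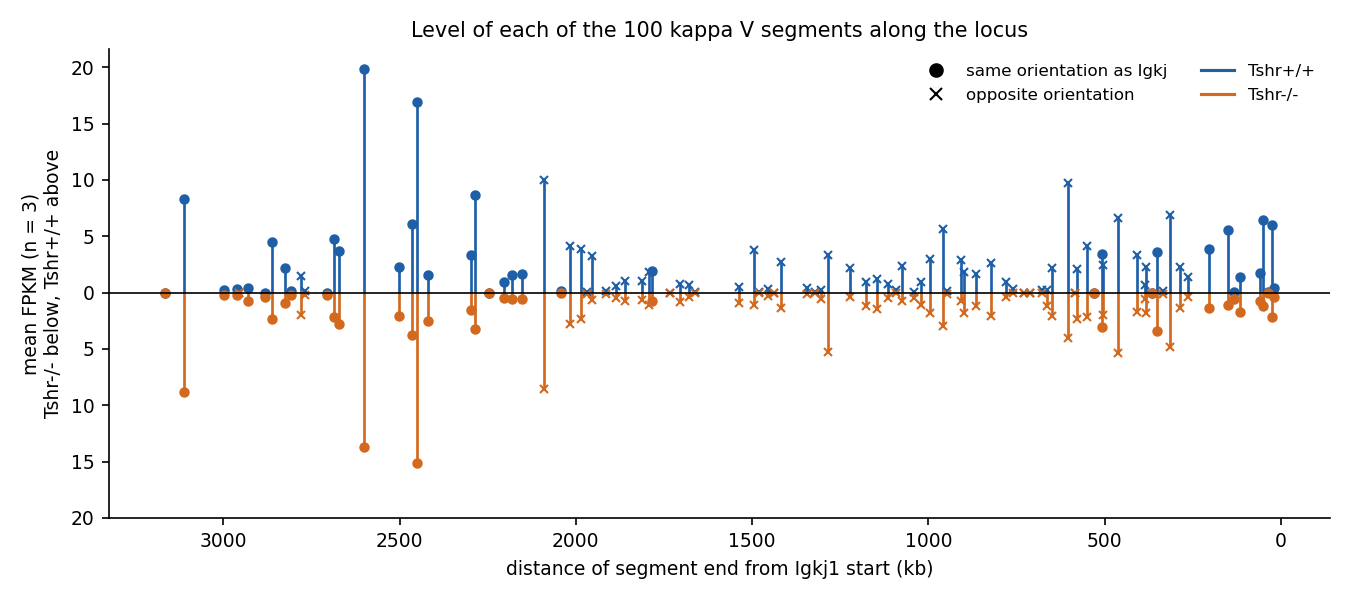
Mean FPKM of each kappa V segment over 3 libraries (y axis, Tshr+/+ drawn upward and Tshr-/- downward from 0) against its distance from Igkj1 in kb (x axis), with circles for the orientation of Igkj and crosses for the opposite. The abundant segments Igkv1-117, Igkv1-110 and Igkv1-135 are among the 25 farthest segments, at 2180 to 3166 kb.

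Likeness of usage covered similar ranges within and between labels. Across the 100 segments, Pearson's r of the shares was 0.682 to 0.855 for the 6 pairs of libraries with the same label (median 0.788) and 0.676 to 0.882 for the 9 pairs with different labels (median 0.768). The usage held in common by a pair was 67.4% to 74.4% within and 66.0% to 75.5% between labels. These values are descriptions: the points are segments of the same libraries, which share families and fragments. Every pair differed by more than counting error, with a chi-square per degree of freedom of 2.33 to 5.85 within and 2.87 to 6.10 between labels.

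In the comparison of the labels, no segment passed limma's threshold of an adjusted p of 0.05, where 0% of the 10913 genes tested passed in either direction. Of the segments, 49 reached 1 FPKM in at least 3 libraries and were tested, and their adjusted p was 0.9997 throughout (limma, Benjamini-Hochberg over all genes). The smallest adjusted p of any gene was 0.566. The log2 fold changes on the log2(FPKM + 1) scale, Tshr-/- minus Tshr+/+, ran from -1.88 to 0.44 in these 49 segments, with a median standard error of 0.38. Of them, 13 had an unadjusted p under 0.05 and a lower level in Tshr-/- libraries, where 1.48% of all genes tested had, and 0 had one with a higher level, where 1.43% had.

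The direction was uneven. Among tested segments, 40 of 49 had a log2 fold change under 0 (81.6%), against 52.9% of all genes tested, and 24 were under -0.5, against 1.82%. Their median was -0.43, against -0.01 over all genes tested. Leaving out the library labelled Tshr-/- 1 moved the median to -0.25, leaving out Tshr+/+ 2 moved it to -0.67, and with Tshr-/- 3 as the only mutant-labelled library it was -0.15, with 28 of 47 lower. The filter bears on these counts, since 1 segment passed it through the Tshr+/+ libraries alone and 15 reached 1 FPKM in all 3 Tshr+/+ libraries but not in all 3 labelled Tshr-/-, with 3 the other way round. Over all 94 detected segments with no filter, the group mean was lower in Tshr-/- libraries in 64 (68.1%), against 49.7% of the 27144 genes with a fragment. The 45 detected segments that failed the filter were evenly divided, with 23 lower and 22 higher.

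Groups that did not overlap were found in 15 of the 94 detected segments, all lower in Tshr-/- libraries, against 2.97% of genes with a fragment that were lower and 3.4% that were higher. Of these 15, 14 were tested, where 3.55% of all genes tested were lower with no overlap. They were Igkv3-2, Igkv3-4, Igkv3-10, Igkv4-68, Igkv4-72, Igkv4-86, Igkv4-91, Igkv5-48, Igkv6-13, Igkv8-30, Igkv12-46, Igkv13-84, Igkv15-103, Igkv17-121 and Igkv17-127, and some of them share a family and near-identical sequence. The summed level, which these segments form part of, was lowest in the library labelled Tshr-/- 1. In the library labelled Tshr-/- 3, where Tshr was nearly absent, 22 of the 94 segments (23.4%) lay below all 3 wild-type libraries, against 17.7% of the genes with a fragment. Above all 3 were 21 segments (22.3%), against 23.1%. These shares are near those of all genes and are not a result about the segments.

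The 5 segments with the smallest p in the lower direction were Igkv3-2, Igkv4-72, Igkv15-103, Igkv8-30 and Igkv3-4. Igkv3-2, near the Igkj end of the cluster (chr6:70698449-70699067), was at 7.76, 5.27 and 5.01 FPKM in Tshr+/+ and 1.64, 1.89 and 2.89 FPKM in Tshr-/- libraries. Every wild-type value lay above every other. Its log2 fold change was -1.16 ± 0.21 (SE; limma adjusted p = 0.9997). With limma's array weights, which lower the weight of libraries that vary more, it was -1.30 with an adjusted p of 0.0466, the only segment called under any alternative. Under its other alternatives the adjusted p of Igkv3-2 was between 0.171 and 0.999998.

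Igkv3-4 (chr6:70671788-70672377) was at 4.40, 5.20 and 9.76 FPKM against 0, 0.991 and 2.62 FPKM, with a log2 fold change of -1.88 ± 0.48 (SE). Its CDR3 start, CAGCAAAGTAATGAGGATCCTCC, is shared with Igkv3-5. Igkv15-103 (chr6:68437440-68437925), which shares no 50-base stretch with another segment, was at 11.1, 5.31 and 9.66 FPKM against 2.82, 2.47 and 4.37 FPKM, a log2 fold change of -1.17 ± 0.28. Its groups did not overlap, and the wild-type minimum of 5.31 FPKM was next to the highest of the others at 4.37 FPKM. Igkv8-30 (chr6:70117061-70117620) was at 8.77, 8.37 and 12.0 FPKM against 2.70, 6.40 and 3.10 FPKM, a log2 fold change of -1.14 ± 0.28. Igkv4-72 (chr6:69226854-69227433) was at 4.23, 2.25 and 4.84 FPKM against 1.08, 1.24 and 0.864 FPKM, a log2 fold change of -1.17 ± 0.23.

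**Figure D5:**
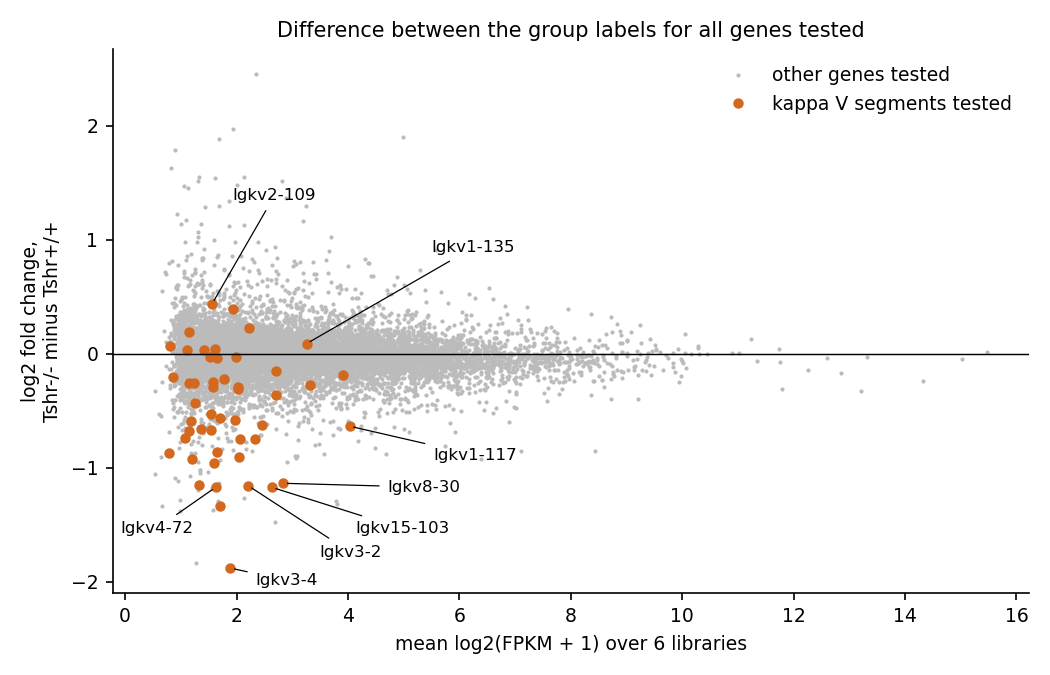
Log2 fold change on the log2(FPKM + 1) scale, Tshr-/- minus Tshr+/+ (y axis), against mean log2(FPKM + 1) over 6 libraries (x axis) for the 10913 genes tested, with the 49 kappa V segments in colour and 8 of them named. Of the segments, 40 lie under 0, and none of the genes shown passed the threshold.

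In the other direction, the 5 smallest p belonged to Igkv2-109, Igkv1-135, Igkv6-17, Igkv4-57 and Igkv4-59. Igkv2-109 had a log2 fold change of 0.44 ± 0.23 (SE; limma adjusted p = 0.9997), and Igkv1-135, with its steady level, had 0.09 ± 0.12. Igkv4-59 had 0.23 ± 0.50, from 3.03, 3.77 and 3.23 FPKM in Tshr+/+ and 1.69, 3.10 and 10.9 FPKM in Tshr-/- libraries. Without the library labelled Tshr-/- 3 its log2 fold change was -0.38. Of the 2 most abundant segments, Igkv1-117 had -0.64 ± 0.43 and Igkv1-110 had -0.19 ± 0.53. The sign of Igkv1-110 turned when Tshr+/+ 3 or Tshr-/- 1 was left out.

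Other abundant segments overlapped between the labels to differing degrees. Igkv6-23 was at 9.54, 2.45 and 7.91 FPKM in Tshr+/+ and 3.54, 6.96 and 5.51 FPKM in Tshr-/- libraries. Igkv6-15 was at 6.60, 3.83 and 10.1 against 5.55, 4.11 and 4.72 FPKM. Igkv14-111 was at 8.45, 3.94 and 5.88 against 1.52, 4.46 and 5.39 FPKM. In these 3 segments the lowest wild-type library was Tshr+/+ 2, and it lay below at least 2 libraries labelled Tshr-/-. Igkv12-46 did not overlap, at 4.83, 5.12 and 6.88 against 1.81, 3.78 and 3.42 FPKM.

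Some segments were high in 1 library only. By a rule set after the values were seen, a highest value of at least 5 FPKM and more than 2 times the second highest, 8 segments were found. Igkv3-10 stood at 12.1 FPKM in Tshr+/+ 1, next to 2.32 FPKM in the second highest library, and Igkv8-27 at 8.80 next to 3.45 FPKM in the same library. Tshr+/+ 3 was the high library for Igkv6-17 (8.75 next to 3.82 FPKM), Igkv8-21 (7.50 next to 2.99 FPKM), Igkv4-91 (6.19 next to 2.30 FPKM) and Igkv12-44 (7.28 next to 1.20 FPKM). The library labelled Tshr-/- 3 was the high one for Igkv4-59 (10.9 next to 3.77 FPKM) and Igkv9-124 (5.76 next to 2.45 FPKM). Such peaks occurred under both labels.

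Igkc, the rest of the kappa transcript, had a log2 fold change of -0.85 ± 0.34 (SE) on the log2(FPKM + 1) scale, and the summed segments stood at 42.8% to 64.8% of the FPKM of Igkc. Igkj segments had 0 to 5 fragments per library, too few to compare. Of the other immunoglobulin constant genes and Jchain, 9 of 12 were tested, 6 were lower and 3 higher, with a median of -0.38. Iglc1, a lambda constant gene, was at 26.6, 18.3 and 19.3 against 6.16, 6.91 and 11.4 FPKM. Its log2 fold change was -1.32 ± 0.24 (SE), and it was the 1 tested gene of this list whose groups did not overlap. Igha, the IgA heavy chain, was at 209, 131 and 226 FPKM against 63.6, 142 and 113 FPKM, a log2 fold change of -0.86 ± 0.33. Ighm, the IgM heavy chain, went the other way at 50.9, 49.6 and 82.2 against 79.5, 106 and 74.9 FPKM, a log2 fold change of 0.53 ± 0.23. No gene of these lists passed the threshold.

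Heavy chain variable segments (Ighv), processed in the same way, gave sums of 165, 97.6 and 268 FPKM in Tshr+/+ and 97.4, 184 and 202 FPKM in Tshr-/- libraries. Of 113 Ighv segments, 49 were tested, 26 lower and 23 higher, with a median log2 fold change of -0.05. The 3 lambda segments (Iglv) summed to 39.6, 23.8 and 26.6 FPKM against 5.13, 15.2 and 23.1 FPKM, with all 3 lower and a median of -0.71. The difference between kappa and heavy chain segments was not tested.

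The summed marker lists of other cells overlapped between the labels for plasma cells, mature B cells and B cell progenitors. Plasma cell genes, 8 of 14 tested, summed to 96.3 to 107 FPKM in Tshr+/+ and 85.2 to 120 FPKM in Tshr-/- libraries. The largest parts were Xbp1 (means 45.8 and 50.1 FPKM), Creld2 (17.5 and 21.6 FPKM) and Tent5c (14.8 and 15.0 FPKM). The sum therefore says little about the low genes of the list, such as Mzb1 and the untested genes given above. Mature B cell genes, 4 of 14 tested, summed to 8.71 to 15.0 and 8.23 to 14.1 FPKM. The 4 tested genes differed in direction. Their log2 fold changes were -0.40 for Cd79a, -0.08 for Cd79b, 0.09 for Bank1 and 0.35 for Ly6d. Of the 8 genes of B cell progenitors and recombination none reached the filter, with sums of 0.537 to 1.78 and 0.813 to 2.68 FPKM, and Rag1, of the recombinase that joins the segments, was at 0 to 0.120 FPKM. The 11 octamer and kappa enhancer factors, 9 of them tested, had a median of -0.02, and the 13 myeloid genes, all tested, had -0.03. T and NK cell genes, 3 of 8 tested, had a median of 0.30. No gene of these lists passed the threshold, and no marker was at 0 in every library.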

How the data were processed

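RNA was sequenced from 6 libraries of CD11b-positive bone marrow cells, 3 per label. The authors deposited FPKM per gene with gene lengths; per the submitters' processing notes the builds were GRCm38 and mm10. Aligner, counter and strand setting: not given in the sources used here. FPKM times length, divided by a unit fitted for each library, gave whole fragments in 100% of values above 0 within 0.01. The unit was fitted from the same values, with the smallest ones first taken as 1 fragment. These fragments were used for depth, detection and intervals. The deposited scale did not follow the fragments on genes alone. Tshr+/+ 3 had fewer (17072004) than Tshr+/+ 1 (17635762), but 1 fragment per kb stood for 0.0541 FPKM against 0.0587 FPKM. The members and gene lists were chosen with earlier results of these data known.

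The deposited FPKM were put on the log2(FPKM + 1) scale, and the 10913 genes that reached 1 FPKM in 3 or more of the 6 libraries entered a comparison of the labels by limma 3.58.1 under R 4.3.3 (trend, two-sided, Benjamini-Hochberg, threshold 0.05), after a test on simulated data. A fold change on this scale understates low genes. Sums, shares and counts carry no p-value. Segments were named as the 12 most abundant, the 5 with the smallest p in each direction, those past the threshold, the leader of each library, and any seen in all libraries of 1 group and none of the other; others are marked or belong to a count. For gene lists the rule took called genes, otherwise the most abundant gene and the 2 of lowest p, and the text names only some of these. Same-numbered libraries deviated together (r = 0.243, 0.262 and 0.468 over genes), although Tshr+/+ 2 also deviated with Tshr-/- 1 (r = 0.344). The main fit did not pair the libraries, and a block by mouse number was run only as an alternative. Alternatives covered pseudocounts, filters, scaling, voom on whole fragments, array weights, the replicate block and each library left out.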

Additional observations from a re-analysis of the deposited data

How the results depend on the processing

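No segment was called in any alternative except with array weights, which called 13 genes higher and 11 lower in Tshr-/- libraries and 1 segment, Igkv3-2; it gave most weight to Tshr-/- 1 (3.82) and Tshr+/+ 2 (3.15). Leaving out 1 library at a time called 0 to 2 genes as higher. In the fit with a replicate block, the smallest adjusted p of a segment was 0.602 and the block changed no call; the median stayed at -0.43. The median log2 fold change was -0.69 with a pseudocount of 0.1, -0.23 with 5, -0.68 with voom, and -0.67 to -0.25 with 1 library left out. Segments lower in Tshr-/- libraries numbered 63 of 94 with no filter, 7 of 8 when the mean had to reach 5 FPKM, and 26 of 43 without the highest and the lowest library (Tshr+/+ 3 and Tshr-/- 1), a setting chosen after seeing the data. Where the count tested was smaller, fewer segments passed the filter.

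Segments detected averaged 40.3 and 29.7 (Tshr+/+ and Tshr-/-) with at least 10 fragments and 51.3 and 42 with at least 1 FPKM. After thinning they averaged 66.6 in Tshr+/+ and 68.6 in Tshr-/- libraries. Several named segments changed sign, and the cause was not tested. With array weights Igkv6-23 was at 0.030, Igkv6-15 at 0.14 and Igkv4-59 at -0.46. Without the libraries labelled Tshr-/- 1 and 2, Igkv1-117 was at 0.19 and Igkv10-96 at 0.37. Without the highest and the lowest library, Igkv1-110 was at 0.60 and Igkv6-23 at 0.25. With 1 library left out, the log2 fold change ranged from -0.0036 to 0.16 for Igkv1-135, -0.65 to 0.15 for Igkv6-23, -0.19 to 1.17 for Igkv6-17, -0.22 to 0.43 for Igkv4-57, -0.69 to 0.27 for Igkv1-110 and -0.38 to 0.69 for Igkv4-59. With 591 to 2120 kappa V fragments per library, segments with few fragments are limited by counting error.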
